A study of Mus musculus with 4 samples.

Results

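The KAP1 repression pathway genes were 8 genes taken by name, Trim28, Setdb1, Zfp57, Atf7ip, Zfp809, Cbx1, Cbx3 and Cbx5, among 37310 annotated mouse genes, and their DNA methylation was followed in Chr4-cl WT and Chr4-cl KO embryonic stem (ES) cells. For each gene, CpG sites were taken from 5 kb upstream of the annotated 5′ end to the 3′ end (mm9), and were split into those within 1 kb of the 5′ end, called the 5′ window here, and the rest. A site was used in a library where at least 10 reads covered it, and its methylation level was the number of methylated reads divided by the number of reads, in percent. Of 981048 sites that met this minimum in any library, 315 belonged to the 8 genes. Of 400195 sites that met it in all 4 libraries, 128 did, and these lay in 6 of the 8 genes.

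Methylation was measured by reduced representation bisulfite sequencing, which samples CpG-rich fragments cut at the letters CCGG. WT cells carried the Chr4-cl, a cluster of KRAB zinc-finger protein (KRAB-ZFP) genes on chromosome 4, and KO cells carried a CRISPR/Cas9 deletion of it made with a pair of guide RNAs, each genotype being a picked clone from ES cells of a mixed B6;129 background with a Cre/ERT transgene at Gt(ROSA)26Sor. Each was grown in serum medium (20% FCS with LIF) or for 1 week in medium with the 2i inhibitors and Vitamin C, and 1 library was made for each of the 4 combinations. A difference between clones and a difference due to the deletion therefore cannot be told apart, and every test below compares the reads of 2 libraries, not the conditions. A site was called higher or lower where its levels in 2 libraries were at least 20 percentage points apart and Fisher's exact test on the reads gave an adjusted p below 0.05.

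KRAB-ZFPs bind DNA through their zinc fingers and recruit KAP1, the protein made from Trim28. KAP1 brings in SETDB1, which places the repressive H3K9me3 mark, and the HP1 proteins encoded by Cbx1, Cbx3 and Cbx5, which bind that mark. In ES cells this machinery is known for silencing transposable elements and for protecting the methylated allele at imprinted loci. The promoters of housekeeping genes usually lie in CpG-rich DNA that is unmethylated.

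The stretches of mm9 sequence that carry the differences are given 5′ to 3′ on the strand of the gene, with capitals for the CpG sites concerned. They begin with intron 1 of Atf7ip, on the plus strand, where the capitals mark the 5 CpG sites called higher in KO than in WT cells in serum, and continue with the stretches downstream and upstream of it, where they mark the sites compared in serum.
Atf7ip intron 1, chr6:136467629-136467702: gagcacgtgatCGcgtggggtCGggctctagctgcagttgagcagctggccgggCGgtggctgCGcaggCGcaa
Atf7ip intron 1, farther downstream, chr6:136467862-136467942: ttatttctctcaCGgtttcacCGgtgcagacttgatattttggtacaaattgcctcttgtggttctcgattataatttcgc
Atf7ip upstream, chr6:136467112-136467167: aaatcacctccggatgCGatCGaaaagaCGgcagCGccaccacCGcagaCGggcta
The next stretch holds the 2 sites of Cbx3 (plus strand) that were called in opposite directions in the media, in capitals.
Cbx3 exon, chr6:51420808-51420837: cggggaggctgCGagcccCGtgggccgcgg
The last exon of Zfp57 (plus strand) held 3 partly methylated sites and the exon of Setdb1 (minus strand) 2 sites that lost most of their methylation in 2i + Vitamin C, with the sites in capitals.
Zfp57 coding exon, chr17:37146539-37146708: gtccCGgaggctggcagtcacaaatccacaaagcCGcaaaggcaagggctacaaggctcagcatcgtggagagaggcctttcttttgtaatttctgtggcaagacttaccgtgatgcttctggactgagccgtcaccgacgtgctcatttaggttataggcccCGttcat
Setdb1 coding exon, chr3:95143875-95143974: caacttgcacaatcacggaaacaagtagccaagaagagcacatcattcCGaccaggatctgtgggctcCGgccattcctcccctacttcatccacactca
The start of the Trim28 coding sequence (plus strand) is shown as a contrast, since the capitalised sites, those compared in serum, carried little methylation in any library.
Trim28 coding exon, chr7:13610068-13610221: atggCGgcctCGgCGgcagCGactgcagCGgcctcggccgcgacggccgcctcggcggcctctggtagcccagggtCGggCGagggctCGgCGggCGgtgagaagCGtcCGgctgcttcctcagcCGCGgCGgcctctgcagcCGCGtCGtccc

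The libraries held 42684672 to 90649194 reads summed over CpG sites, and the median coverage of a site at or above the minimum was 25 reads in KO cells in 2i + Vitamin C and 42 to 50 in the other libraries. The comparisons were limited by the sites that each library covered. Member sites at the minimum numbered 219 (WT) and 228 (KO) with serum, then 261 (WT) and 209 (KO) in 2i + Vitamin C. In part that last library covered other sites. It had 2 of Cbx5, against 21 or 22 in the others, but 29 of Zfp57, against 10 to 15. Whether its lower depth was the reason was not tested. Between the guide target sites on chromosome 4, 0.116% to 0.122% of the summed reads of a WT library were found, against 0.000928% to 0.00344% of those of a KO library. Over the 400195 sites the mean level was 27.4% for the WT and 30.5% for the KO library from serum, then 13.9% (WT) and 12.2% (KO) after the change of medium. The KO level was thus slightly above that of WT with serum and slightly below it with 2i + Vitamin C before any single gene was considered. The same held for 5′ windows: over 10500 protein-coding genes with at least 5 such sites in the window, the median window had 1.36%, 2.29%, 2.01% and 1.13% in WT in serum, KO in serum, WT in 2i + Vitamin C and KO in 2i + Vitamin C. This order of the libraries is kept below wherever 4 values are given. All intervals are 95% Wilson intervals and cover the counting of reads only.

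Of the 6 genes whose 5′ windows were covered in serum, 5 had windows with mean levels under 5%, and Atf7ip did not; the windows of Zfp57 and Cbx1 had no covered site in serum. The plot of every member site by gene and library shows the window of Atf7ip spread from 0% to 92.3% in serum. The other covered windows lay near 0% apart from single sites, the highest of them in Cbx3. Away from the 5′ ends, a few sites of Zfp57, Zfp809, Setdb1 and Cbx5 were partly or highly methylated in serum and low in 2i + Vitamin C.

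**Figure D1:**
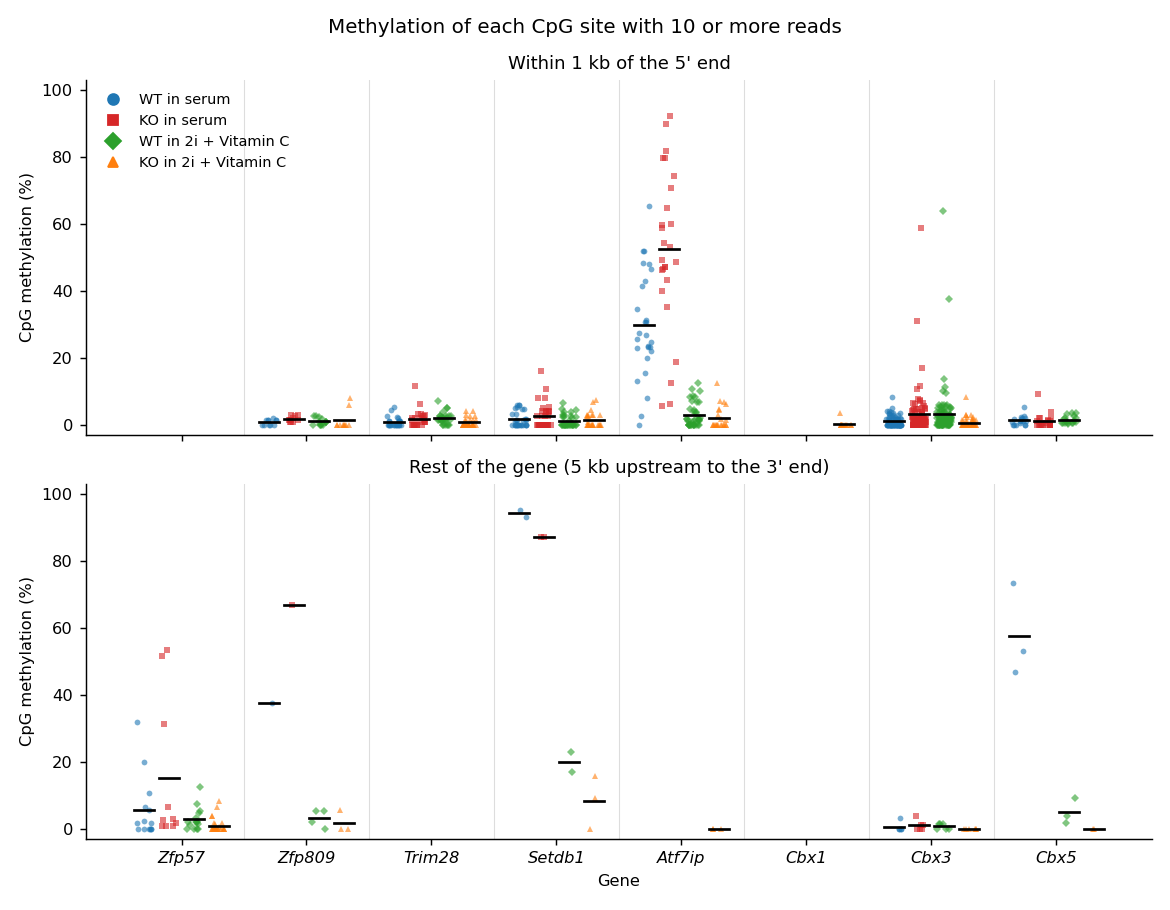
Methylation level in percent (y axis) of every CpG site with at least 10 reads in a library, by gene (x axis) and library (colour and marker), within 1 kb of the 5′ end (top) and in the rest of the gene (bottom). Points are sites and black bars are means over the sites covered in that library, which differ between libraries; the Atf7ip window stands above the other windows in both serum libraries.

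Zfp57 encodes a KRAB-ZFP that binds the methylated allele of imprint control regions. Its 5′ window holds 19 CpG and no CCGG, a sequence (its own reverse complement) found in 86.9% of 22380 windows, and no site in it was covered. At 7 sites of all 4 libraries from 1634 to 1733 bp downstream of the 5′ end, methylation averaged 2.14%, 2.35%, 2.42% and 1.38%. These intronic sites were low in each library.

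The coding sequence of the last exon of Zfp57 differed from this. The site at position 37146543 on chromosome 17, 8435 bp downstream, was methylated in 29 of 145 (WT) and 66 of 124 reads (KO) from serum, and in 14 of 190 (WT) and 5 of 136 reads (KO) from 2i + Vitamin C. It stood at 20.0% (interval 14.3 to 27.2) and 53.2% (44.5 to 61.8) in serum, and the change of 33.2 percentage points was called (two-sided Fisher's exact test, p adjusted by the Benjamini-Hochberg method over all sites of the series, adjusted p = 1.80e-06). The site at 8465 bp went from 31.8% to 51.6% in serum, with 5.26% and 1.42% in 2i + Vitamin C, and its change of 19.8 points fell just short of the 20-point minimum for a call. The site at 8594 bp had 10.6%, 31.2%, 1.44% and 0.667%, and its change of 20.6 points in serum was called (Fisher's exact test, adjusted p = 0.00167). At all 3 sites KO cells were higher than WT cells in serum, and both 2i + Vitamin C libraries were below both serum libraries. Their mean was 20.8%, 45.4%, 4.69% and 1.92%. In KO cells the 3 sites were called lower in 2i + Vitamin C than in serum, by up to 50.2 points at 8465 bp. In WT cells 1 of them, at 8465 bp, was, by 26.5 points.

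Zfp809 encodes the KRAB-ZFP that recognises the primer binding site of murine leukaemia viruses. The annotated gene begins at its start codon, and the 9 sites of its 5′ window that all 4 libraries covered averaged 0.832%, 1.36%, 1.41% and 0.901%. The largest change between media among them was at 79 bp, with 0%, 2.50%, 2.17% and 8.11%, and it was not called. A single covered site in intron, 14769 bp downstream, had in serum 18 of 48 WT reads methylated (37.5%, 25.2 to 51.6) and 14 of 21 KO reads (66.7%, 45.4 to 82.8). These intervals overlap, and the 29.2-point difference was not called (Fisher's exact test, adjusted p = 0.338). In WT cells in 2i + Vitamin C 1 of 51 reads was methylated (1.96%), so that the level fell by 35.5 points, which was called (Fisher's exact test, adjusted p = 2.22e-05), and KO cells in 2i + Vitamin C had too few reads there.

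Trim28 encodes KAP1, the corepressor that KRAB-ZFPs recruit. Its 5′ window is dense in CpG, with 176 in 2 kb, and the 26 sites of all 4 libraries averaged 0.951%, 1.76%, 1.97% and 0.901%. The serum difference was about that of the median window. Of the 26 sites, 1 was above 10% in any library. That site, 658 bp downstream in the coding sequence, had 1 of 85, 17 of 149, 2 of 78 and 0 of 73 reads methylated, or 1.18%, 11.4%, 2.56% and 0%. No site of Trim28 was called in any comparison.

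Setdb1 encodes the H3K9 methyltransferase of the pathway. At the 23 sites of its 5′ window covered in all 4 libraries, methylation averaged 1.67%, 2.90%, 1.40% and 1.45%, and none was called. The highest single value was 16.0%, 4 of 25 reads, in KO cells in serum 235 bp downstream, where the other libraries had 0 methylated of 17, 46 and 35 reads. The pair of sites in a coding exon, 17199 and 17219 bp downstream, behaved differently from the window. At 17199 bp, 41 of 44, 27 of 31, 14 of 83 and 3 of 33 reads were methylated, or 93.2%, 87.1%, 16.9% and 9.09%. At 17219 bp the levels were 95.2%, 87.1%, 22.9% and 15.6%. Both sites were high in both serum libraries and low in both others. Between media the site at 17199 bp fell by 76.3 points in WT cells (Fisher's exact test, adjusted p = 2.07e-16) and by 78.0 points in KO cells (Fisher's exact test, adjusted p = 1.96e-09). KO minus WT differences at this site were -6.09 points in serum and -7.78 points in 2i + Vitamin C, and neither was called.

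**Figure D2:**
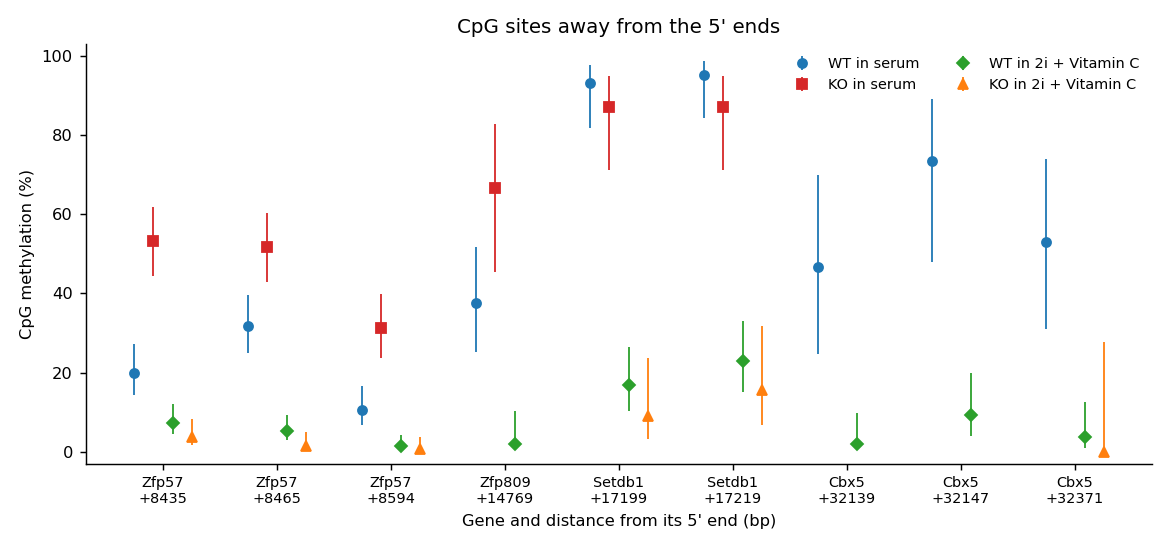
Methylation level in percent (y axis) of the CpG sites outside the 5′ windows that were called in any comparison, in Zfp57, Zfp809, Setdb1 and Cbx5, labelled with the distance from the 5′ end in bp (x axis); points are the 4 libraries and bars are 95% Wilson intervals. Serum levels are above the 2i + Vitamin C levels at each site, and at the 3 Zfp57 sites KO cells in serum (31.2% to 53.2%) are above WT cells in serum (10.6% to 31.8%).

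Atf7ip encodes the partner protein that stabilises SETDB1 in the nucleus. Its 5′ window was the only one partly methylated among the 6 covered in serum, it was more methylated in KO than in WT cells in serum, and it was nearly unmethylated in 2i + Vitamin C in both genotypes. At the 12 sites of all 4 libraries, the mean was 25.2%, 48.5%, 2.19% and 1.84%. The SD over these sites, which share reads, was 12.8, 17.4, 1.17 and 2.42 points.

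The sites of Atf7ip moved together. Of 26 sites compared in serum, 25 were higher in KO cells, with a median change of 24.0 points, and 6 were called higher, where 1.82% of all sites of the series were. That share counts sites of every starting level. Over the 400195 sites of all 4 libraries the median level in WT cells in serum was 2.82%. No share for sites of a starting level like that of Atf7ip was taken. Neighbouring sites share reads, so they are not independent measurements: those from 42 to 80 bp, in the first exon (UTR), had 74 to 77 reads each in WT cells. These 6 exon sites averaged 28.1%, 50.4%, 1.55% and 1.78%, and the site at 47 bp, with 22.1% (WT) and 47.2% (KO) with serum, was called (Fisher's exact test, adjusted p = 0.0415). The other 5 called sites lay in intron 1. At 268 bp the levels were 27.3%, 60.0%, 1.48% and 0% (Fisher's exact test, adjusted p = 0.00454 in serum), and at 278 bp they were 15.6%, 46.6%, 3.68% and 2.86%. The site at 270 bp, within the same reads, stayed at 2.70%, 5.56%, 1.95% and 1.41%. That site stood out as low among its neighbours.

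Farther into intron 1 the serum levels were higher still. At 311, 320 and 326 bp WT cells in serum had 30.8%, 51.9% and 48.1%, from 26 or 27 reads, and KO cells in serum had 79.5%, 89.7% and 92.3%, from 39 reads. The changes of 48.7, 37.9 and 44.2 points were called (Fisher's exact test, adjusted p = 0.00478, 0.0300 and 0.00421), and WT cells in 2i + Vitamin C had 0%, 8.47% and 3.39%. The largest fall between media among sites of all 4 libraries was at 511 bp, where 26 of 50, 40 of 49, 4 of 86 and 0 of 13 reads were methylated, or 52.0%, 81.6%, 4.65% and 0%. The difference between the genotypes at this site was 29.6 points in serum and was not called (Fisher's exact test, adjusted p = 0.0561). Upstream of the 5′ end, 10 sites averaged 22.8%, 40.7% and 2.95% in the 3 libraries that covered them, with 23 to 26 reads each in the WT and 15 to 17 in the KO library from serum, and none was called between the genotypes. The KO library in 2i + Vitamin C covered 1 of these 10.

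**Figure D3:**
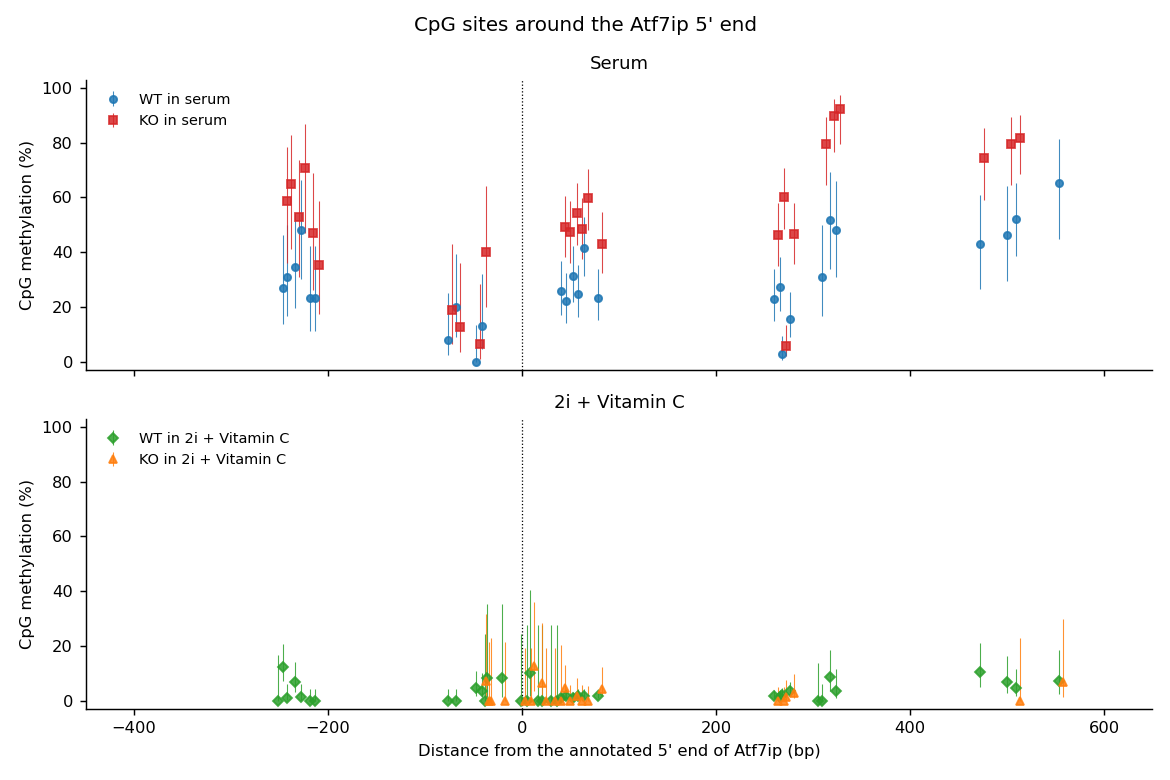
Methylation level in percent (y axis) of each covered CpG site by distance in bp from the annotated Atf7ip 5′ end (x axis, dotted line at 0), in serum (top) and in 2i + Vitamin C (bottom); points are sites and bars are 95% Wilson intervals. In serum 25 of the 26 sites compared are higher in KO than in WT cells, and in 2i + Vitamin C every site of both genotypes lies at or below 12.5%.

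Between media, 21 of 27 sites of Atf7ip in WT cells and 10 of 12 in KO cells were called lower in 2i + Vitamin C, against 31.8% and 28.6% of all sites, and none was called higher. In 2i + Vitamin C the genotypes could be compared at 23 sites, with a median change of 0 points and none called. No WT level of the window was above 12.4% in that medium, so no site could be called lower in KO cells. Some of the 23 sites had only 10 WT reads. The window of Atf7ip holds 88 CpG, and its observed to expected CpG ratio of 0.975 was reached by 0.527% of 22380 windows. Its WT serum level was reached by 2.53% of the 10500 windows, and its KO serum level by 2.07%. Of the 10500 windows, 49 (0.467%) were higher by at least 20 points in KO than in WT cells in serum, and 1 of the 5 member windows with enough sites, that of Atf7ip, was among them. The gain of 23.3 points at Atf7ip was matched or exceeded by 30 windows including its own. In 2i + Vitamin C against serum, 2.44% of windows in WT and 3.75% in KO cells fell by at least 20 points, and again 1 of the 5 member windows did, that of Atf7ip, by 23.0 and 46.7 points. The 3 windows whose 4 levels were nearest to those of Atf7ip (Euclidean distance over the 4 libraries) were those of Nkx6-3 (distance 4.69), with 29.5%, 47.9%, 3.76% and 2.25%, 1190002H23Rik (4.84) and Tuba8 (5.72). The observed to expected CpG ratios of these 3 windows were 0.281, 0.643 and 0.383, all below that of Atf7ip, and the Nkx6-3 window rested on 5 sites. Atf7ip was annotated a second time under the same symbol at its 3′ end, and that record had no covered site.

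**Figure D4:**
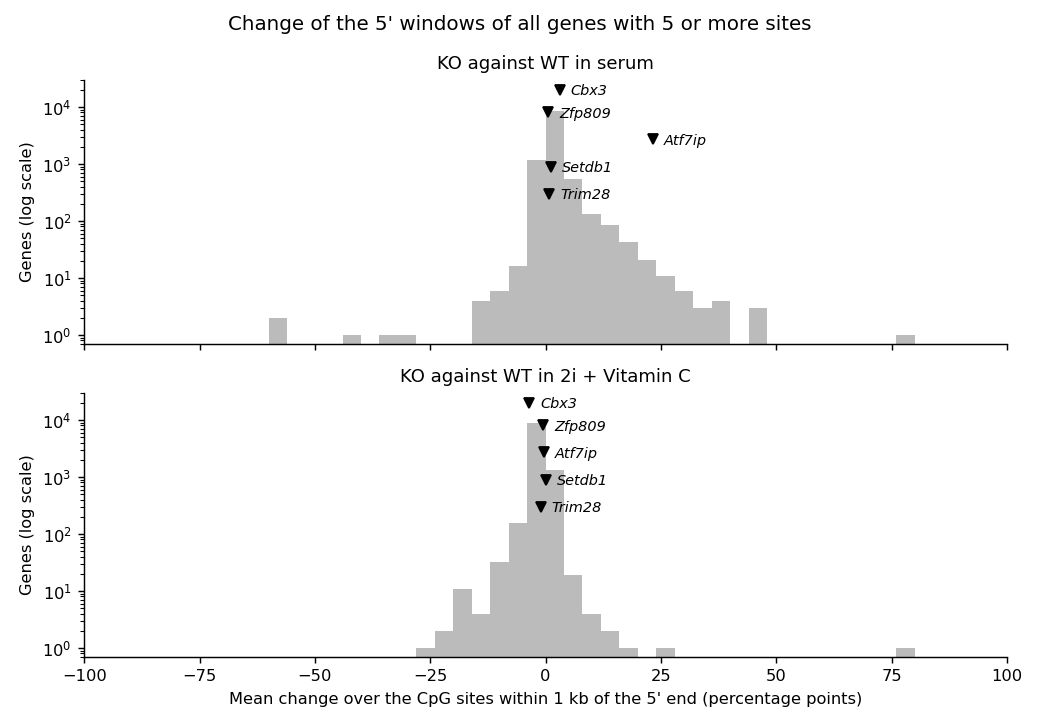
Number of genes (y axis, log scale) by the mean change over the CpG sites of the 5′ window in percentage points (x axis), for 10500 genes, in serum (top) and in 2i + Vitamin C (bottom); triangles mark the 5 member windows with enough sites, at heights chosen for legibility only. In serum Atf7ip lies at 23.3 points and the other members between 0.530 and 3.10; in 2i + Vitamin C all 5 lie between -3.51 and 0.0521.

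Cbx1, Cbx3 and Cbx5 encode the HP1 proteins beta, gamma and alpha, which bind H3K9me3. Cbx1 was covered in 1 library, KO cells in 2i + Vitamin C, at 13 sites of its 5′ window, and could not be compared. The 18 sites of the Cbx5 window covered in the other 3 libraries averaged 1.29%, 0.874% and 1.44% in WT in serum, KO in serum and WT in 2i + Vitamin C. None of them was called. The 3 sites in an intron of Cbx5 about 32 kb downstream had 7 of 15, 11 of 15 and 9 of 17 reads methylated in WT cells in serum, and 1, 5 and 2 of 54 reads in WT cells in 2i + Vitamin C. All 3 were called lower, with changes from -64.1 to -44.8 points, and KO cells in serum had too few reads there.

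Cbx3 had the most covered sites, 41 in its 5′ window in all 4 libraries, and they averaged 1.05%, 4.14%, 4.34% and 0.829%. Its 5′ end lies 466 bp from that of Hnrnpa2b1 on the other strand, and the window covers both. The raised means came from a pair of sites in an exon annotated as UTR. At 460 bp downstream, position 51420819 on chromosome 6, 2 of 128, 61 of 104, 74 of 116 and 0 of 88 reads were methylated, or 1.56% (interval 0.429 to 5.52), 58.7% (49.0 to 67.7), 63.8% (54.7 to 72.0) and 0% (0 to 4.18). At 467 bp the levels were 0.775%, 30.8%, 37.5% and 0%, with 88 to 129 reads. KO cells in serum and WT cells in 2i + Vitamin C were high, and the other two libraries were at or near 0%. In KO against WT cells, the site at 460 bp was thus higher by 57.1 points in serum (Fisher's exact test, adjusted p = 5.27e-22) and lower by 63.8 points in 2i + Vitamin C (Fisher's exact test, adjusted p = 6.05e-22).

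The neighbours of this pair did not share the pattern. The sites at 449, 474, 476 and 483 bp had at most 3.36% in any library, at 84 to 134 reads. Smaller differences of the same form stood at 208 bp, with 0%, 17.1% and 13.6% in WT in serum, KO in serum and WT in 2i + Vitamin C, and upstream at -524 bp, with 0%, 11.5% and 9.51%. These 2 sites were not covered in KO cells in 2i + Vitamin C. Among sites of all 4 libraries, that at 810 bp had 0%, 6.10%, 11.4% and 1.43%, and it was not called in any comparison. Without the pair at 460 and 467 bp, the other 39 sites averaged 1.04%, 2.06%, 1.97% and 0.872%.

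**Figure D5:**
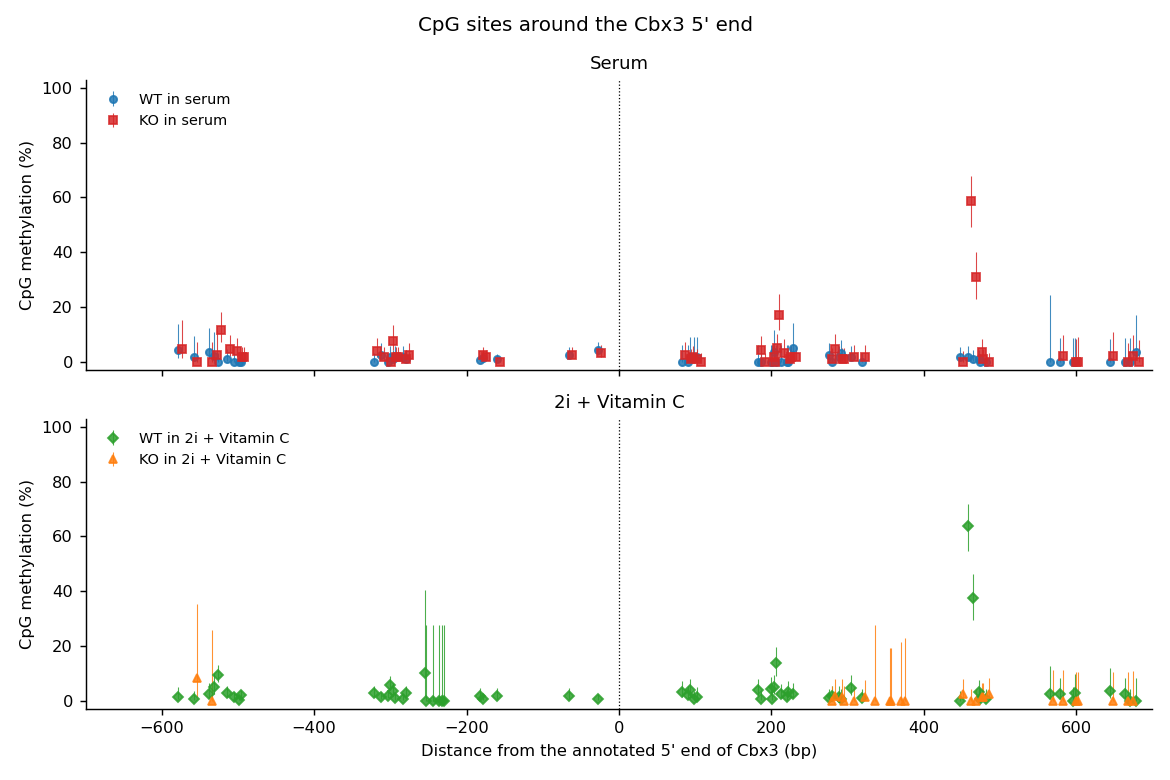
Methylation level in percent (y axis) of each covered CpG site by distance in bp from the annotated Cbx3 5′ end (x axis, dotted line at 0), in serum (top) and in 2i + Vitamin C (bottom); points are sites and bars are 95% Wilson intervals. The sites at 460 and 467 bp reach 58.7% and 30.8% (KO, serum) or 63.8% and 37.5% (WT, 2i + Vitamin C), while the sites beside them stay near 0%.

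This crossing of medium and genotype was seen elsewhere in the series. Of the 400195 sites, 480 (0.120%) had both KO cells in serum and WT cells in 2i + Vitamin C at least 20 points above both other libraries, against 33 sites with the reverse, 30 with both KO libraries above both WT libraries and 75 with both WT libraries above. The median 5′ window split the libraries in the same way. It had 2.29% in KO cells in serum and 2.01% in WT cells in 2i + Vitamin C, against 1.36% and 1.13% in the other 2 libraries. The mean level over the 400195 sites did not split so. The deposited tables of the pair of libraries at or near 0% at the Cbx3 sites (WT from serum, KO from 2i + Vitamin C) each consisted of 2 tables joined end to end, unlike the other 2. Every member site with at least 10 reads, the Cbx3 pair included, came from the first of the joined tables and 0 from the second, in which 59 (WT) and 54 (KO) sites of the genome reached 10 reads.

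Counted over the 8 genes, KO against WT cells in serum gave 10 of 206 sites called higher (4.85%), 6 in Atf7ip and 2 each in Zfp57 and Cbx3, where 1.82% of all sites were called higher. Without Atf7ip the members had 4 of 180 (2.22%), close to the series. Called lower were 0 of 206 member sites, with 0 at an unadjusted p under the same threshold (Fisher's exact test), against 0.115% of all sites. A site below 20% in WT cells cannot be called lower. In serum 23 of 188 window sites and 6 of 18 other member sites were above 10% in WT cells. A share as small as 0.115% also gives few calls among 206 sites, so the 0 says little about the members. The median member site changed by 0.835 points and the median site of the series by 1.24 points. In 2i + Vitamin C, 2 of 159 member sites were called lower, both of them the Cbx3 pair, against 0.361% of all sites. None of the 159 was called higher, with 0 at an unadjusted p under the threshold (Fisher's exact test), against 0.0897% of all sites. At so small a share, 0 of 159 says little either. The median changes were -0.537 and -0.739 points for members and series.

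Between media the share of member sites called lower differed between the 5′ windows and the rest of the genes. In the windows it was 21 of 190 (11.1%) in WT and 12 of 119 (10.1%) in KO cells, and in the rest 7 of 24 (29.2%) and 5 of 18 (27.8%). All 21 window sites called in WT cells were sites of Atf7ip. The 12 in KO cells were 10 sites of Atf7ip and the Cbx3 pair. The shares over all sites of the series count windows and other sites together, so they are no like measure for the rest alone. Nor are they for the members as a whole, since 190 of 214 member sites in WT and 119 of 137 in KO cells lay in windows. No share over all window sites of the series is given here. Outside the windows, 7626 protein-coding genes had at least 5 sites covered in all 4 libraries. Their median change, each gene being a mean over its sites, was -26.0 points in WT and -35.0 points in KO cells. Over both regions, in WT cells 28 of 214 member sites (13.1%) were called lower in 2i + Vitamin C, against 31.8% of all sites, and 2, the Cbx3 pair, were called higher, against 0.144%. Of the 28, 21 were sites of Atf7ip, 3 of Cbx5, 2 of Setdb1 and 1 each of Zfp57 and Zfp809. In KO cells 17 of 137 (12.4%) were called lower, against 28.6% of all sites, and they were 10 sites of Atf7ip, 3 of Zfp57, 2 of Setdb1 and the Cbx3 pair. None was called higher, with 0 at an unadjusted p under the threshold (Fisher's exact test), against 0.0297% of all sites. At so small a share, 0 of 137 says little about the members. At the 99 window sites outside Atf7ip the mean level in WT cells in serum was 1.15%, which is less than the fall a call requires.

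The 31 other genes taken from the same pathway, among them the NuRD remodelling complex, the HUSH complex with MORC proteins, further H3K9 methyltransferases and KAP1 partners, had no measured window with levels like those of Atf7ip. In 27 of them the 5′ window had at least 5 sites in all 4 libraries, and the highest window mean was 1.58% in WT cells in serum, 3.13% in KO cells in serum, then 2.91% (WT) and 2.38% (KO) in 2i + Vitamin C. In KO against WT cells in serum 7 of 1330 sites (0.526%) were called higher, in 4 genes, and 0 lower, against 1.82% and 0.115% of all sites. Of 1093 sites in 2i + Vitamin C, 1 was called lower and 1 higher (0.0915% each), against 0.361% and 0.0897%. Both of the latter lay in Pphln1, which encodes a HUSH subunit. Of the 7, 6 lay in genes of NuRD subunits, 3 in Mta1, 2 in Chd3 and 1 in Rbbp4, which was 1.08% of the 555 NuRD sites and below the share of the series. The seventh lay in Smarcad1, a chromatin remodeller that binds KAP1. All but 1 of these lay more than 10 kb inside the gene, such as that of Smarcad1, with 51.8%, 81.7%, 15.2% and 13.8%. The site of Mta1 at -132 bp had 1.43% of 488 reads, 32.8% of 711 reads, 28.8% of 337 reads and 0% of 17 reads. The same libraries were high there as at the Cbx3 pair, but the difference of the Mta1 site in 2i + Vitamin C was not called (Fisher's exact test, adjusted p = 0.228). Of the H3K9 methyltransferase genes 0 of 283 sites, and of the HUSH and MORC genes 0 of 214, were called between the genotypes in serum. In 2i + Vitamin C against serum, 150 of 1361 sites were called lower in WT and 108 of 1106 (9.77%) in KO cells, beside 31.8% and 28.6% of all sites, with window and other sites counted together.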

How the data were processed

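Genomic DNA of 4 ES cell samples, 1 per group, was analysed by RRBS. Trimming (Trim Galore), mapping to mm9 (Bismark) and merging of both strands of a CpG dyad were done by the authors, with versions not given in the sources used here. For every CpG the deposited files hold a read count, a methylated read count and their fraction; only the counts entered the calculations. Totals per library of 42684672 to 90649194 reads summed over CpG sites, where a read counts at each site it covers, bound the precision. Positions listed more than once (332 rows for WT in serum, 830 for KO in 2i + Vitamin C) were left out. Genes came from GENCODE vM1. In each of 4 comparisons, sites with at least 10 reads in both libraries were tested on the reads (Fisher's exact, two-sided), p-values were adjusted by the Benjamini-Hochberg method over all such sites of the genome, and a call needed both an adjusted p under 0.05 and 20 percentage points (Python 3.11.15, numba 0.67.0, checked on simulated data). Levels were averaged over sites, each counted once. All 8 genes were described; single sites were named if among the 12 largest called changes between genotypes or the largest change between media of a gene, and further sites were named after their values were seen. The 31 other pathway genes were named only if they held called sites, up to 12. The members, lists and stretches were chosen with earlier results of these data known. Alternatives were another coverage minimum (5 or 20 reads), sites covered in all 4 libraries, thinned reads, a 10-point minimum, no test, pooled reads, means of genes and windows of 500 bp or 2 kb.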

Additional observations from a re-analysis of the deposited data

Results flagged for a closer look

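The pair of Cbx3 sites was picked out because KO cells differed from WT cells in opposite directions in the 2 media. At 460 bp downstream of the 5′ end the change was 57.1 points in serum and -63.8 points in 2i + Vitamin C, and at 467 bp it was 30.1 and -37.5 points. The difference between the media was not itself tested, and each value rests on 1 library per group. Of 400195 sites tested in both media, 403 were called higher in serum and lower in 2i + Vitamin C, and 21 the other way round.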

How the results depend on the processing

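No paired analysis was possible because each group held 1 library, and no replicate could be left out. The sites covered in KO cells in 2i + Vitamin C limited which sites could be compared. Counts of called member sites were within 1.5 times the reported ones except as follows. In KO against WT cells in serum the 10 sites called higher became 23 with no test and 4 without Atf7ip. In WT cells between media the 28 called lower became 12 at sites covered in all 4 libraries and 7 without Atf7ip, and the 2 called higher became 4 with a 10-point minimum. In KO cells between media the 17 called lower became 7 without Atf7ip. Without the pair of Cbx3 sites, 0 were left of the 2 called lower in 2i + Vitamin C and 0 of the 2 called higher between media in WT cells. Leaving out Atf7ip or the Cbx3 pair was chosen after seeing the data.

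Mean changes over sites of all members mix genes with different levels and moved with the choice of sites. The cause was not tested beyond the genes left out. In the 5′ windows, KO against WT in serum gave 4.64 points, and 4.05 with a minimum of 20 reads, 4.16 at sites of all 4 libraries, 2.59 with pooled reads, 6.19 within 500 bp and 1.505 without Atf7ip. In 2i + Vitamin C it gave -1.57, and -0.967 as a mean of genes and -0.831 without the Cbx3 pair. Between media, WT windows changed by -2.60, and by -3.07 with a minimum of 5 reads, -1.04 at sites of all 4 libraries, -1.02 with pooled reads, -3.83 as a mean of genes, -3.59 within 500 bp, -3.16 without the Cbx3 pair and 1.34 without Atf7ip, which turned the direction. KO windows changed by -6.52, and by -10.4 with 5 reads, -5.73 pooled, -10.5 as a mean of genes, -11.3 within 500 bp, -5.87 without the Cbx3 pair and -2.02 without Atf7ip.

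In the rest of the genes, KO against WT in serum gave 5.16, and -1.35 with pooled reads, which turned the direction, and 14.8 beyond 2 kb. In 2i + Vitamin C it gave -1.74, and -2.95 with 5 reads, -2.96 as a mean of genes and -3.87 beyond 2 kb. Between media WT sites changed by -16.2, and by -13.9 with 5 reads, -12.7 with 20 reads, -11.4 at sites of all 4 libraries, -12.8 pooled, -33.2 as a mean of genes, -4.79 beyond 500 bp and -39.1 beyond 2 kb. KO sites changed by -16.3, and by -22.5 with 5 reads, -13.1 pooled, -29.8 as a mean of genes, -5.50 beyond 500 bp and -55.9 beyond 2 kb. For Atf7ip alone the gain in KO cells in serum was 19.6 to 28.0 points under 4 alternatives, beside 24.2.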
